A study of Mus musculus with 272 samples.

Results

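The chromatin of 8 T-box transcription factor genes (Tbx1, Tbx2, Tbx3, Tbx4, Tbx5, Tbx15, Tbx18 and Tbx20) and of the homeobox gene Pitx1 was examined in mouse muscle stem cells (MuSCs). The genes were taken by symbol from the GENCODE M21 annotation of mm10, where all 9 were found among 21938 protein-coding genes. For each gene, the promoter was taken as 3 kb either side of every annotated transcription start site, and all peaks in the gene and within 50 kb either side were collected, per replicate. GFP+ MuSCs had been sorted from hindlimb muscles of Pax7Cas9 mice, in which Pax7Cre switches on a Cre-dependent Rosa26Cas9-EGFP knockin, so that Cas9 and GFP mark cells in which Pax7Cre has been active and their descendants. From these cells the study mapped open chromatin by ATAC-seq, and H3K4me3, H3K27ac and H3K27me3 by ChIP-seq, with 2 replicates of each, among the 272 samples of a project on CRISPR-Cas9 editing in muscle. All 8 libraries share this genotype, and their labels give the tissue as skeletal muscle without strain, age, treatment or number of mice, so that the spread between replicates may be technical. Each library is represented by its own list of MACS2 peaks, with the fold enrichment over background at the summit of every peak and its q-value, the p-value adjusted for multiple tests. Since these lists carry no read counts, the depth behind each peak is unknown. A position without a peak therefore counts as unmarked whatever the reason, and values are given as a description with no test.

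T-box factors bind DNA through a shared domain and direct the formation of limbs, heart and head muscles in the embryo. Tbx4 and Pitx1 are known as hindlimb genes and Tbx5 as their forelimb counterpart, Tbx2 and Tbx3 mark the margins of the limb bud, Tbx15 and Tbx18 act in the mesenchyme of limb and trunk, Tbx1 acts in branchial muscle, and Tbx20 acts in the heart. Promoters of genes in use commonly carry H3K4me3 and H3K27ac, whereas Polycomb complexes place H3K27me3 on developmental genes that a cell type does not use, and promoters that carry both H3K4me3 and H3K27me3 are called bivalent.

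The 4 features differed widely in the number of peaks, from 6064 and 10458 for H3K27me3 in replicates 1 and 2 to 140716 and 94382 for ATAC-seq, and 52.7% and 61.5% of the H3K27me3 peaks had a q of at most 0.05 against 100% in the other lists. MuSC markers were marked more completely than those of other cell types. In both replicates, promoters of 13 of 13 MuSC marker genes had H3K4me3, 12 had H3K27ac and 0 had H3K27me3. H3K4me3 stood at 5 of 10 fibro-adipogenic, 5 of 10 endothelial, 4 of 9 blood and 5 of 10 myofibre marker promoters and H3K27ac at 3, 1, 1 and 3 of them, while the fibro-adipogenic markers Dcn, Lum and Ly6a had no promoter peak in any of the 8 lists. By ATAC-seq the difference was smaller, with 13 of 13 MuSC marker promoters open in both replicates. The counts for the others were 6 of 10 fibro-adipogenic, 8 of 10 endothelial, 7 of 9 blood and 9 of 10 myofibre markers. The part of other cell types in the peaks described here was not tested.

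In MuSCs, H3K27me3 and H3K4me3 were both listed at most of these developmental genes. A promoter peak of H3K27me3 was present in both replicates at 8 of the 9 genes, all but Tbx15, against 4.81% of all protein-coding genes. With peaks of q at most 0.05 in both replicates, 6 remained, against 3.25% of all, and the genes lost were Tbx1 and Tbx5, which had no such peak in replicate 1. H3K4me3 marked 8 of the 9, all but Tbx20, against 60.8%, and H3K4me3 and H3K27me3 were both present, each in both replicates, at 7, against 3.85%. These 7 include Tbx1 and Tbx5, which lacked H3K27me3 of q at most 0.05 in replicate 1. They also include Tbx4 and Pitx1, whose H3K4me3 lay at internal starts. With the 5-prime end of the gene as the only start, H3K4me3 marked 6 members, Tbx4 and Pitx1 being lost. Promoters were open by ATAC-seq in both replicates at 7 of the 9, all but Tbx5 and Pitx1, which is near the background of 67.8%. H3K27ac stood at 3 promoters, those of Tbx1, Tbx3 and Tbx15, against 46.6%. This count rests on replicate 2, since replicate 1 also had peaks at Tbx2 and Tbx4, which made 5 of 9 against 50.1% of all genes in that replicate, near the background. It came to 1 when the 5-prime end of the gene was the only start counted, because the H3K27ac of Tbx1 and Tbx15 lay at internal starts. The joint state of H3K4me3 and H3K27me3 in both replicates, with H3K27ac not in both, was found at 5 members (Tbx2, Tbx4, Tbx5, Tbx18 and Pitx1), against 3.06%. It was found at 4 with H3K27me3 of q at most 0.05 (Tbx5 lost), against 2.13%. In replicate 1 alone it was found at 3 (Tbx5, Tbx18 and Pitx1), against 3.49%, and in replicate 2 alone at 5, against 4.44%. The H3K27me3 count came to 0 when the −log10 q of a peak had to reach 5, a limit that 110 protein-coding genes (0.501%) passed in both replicates.

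**Figure D1:**
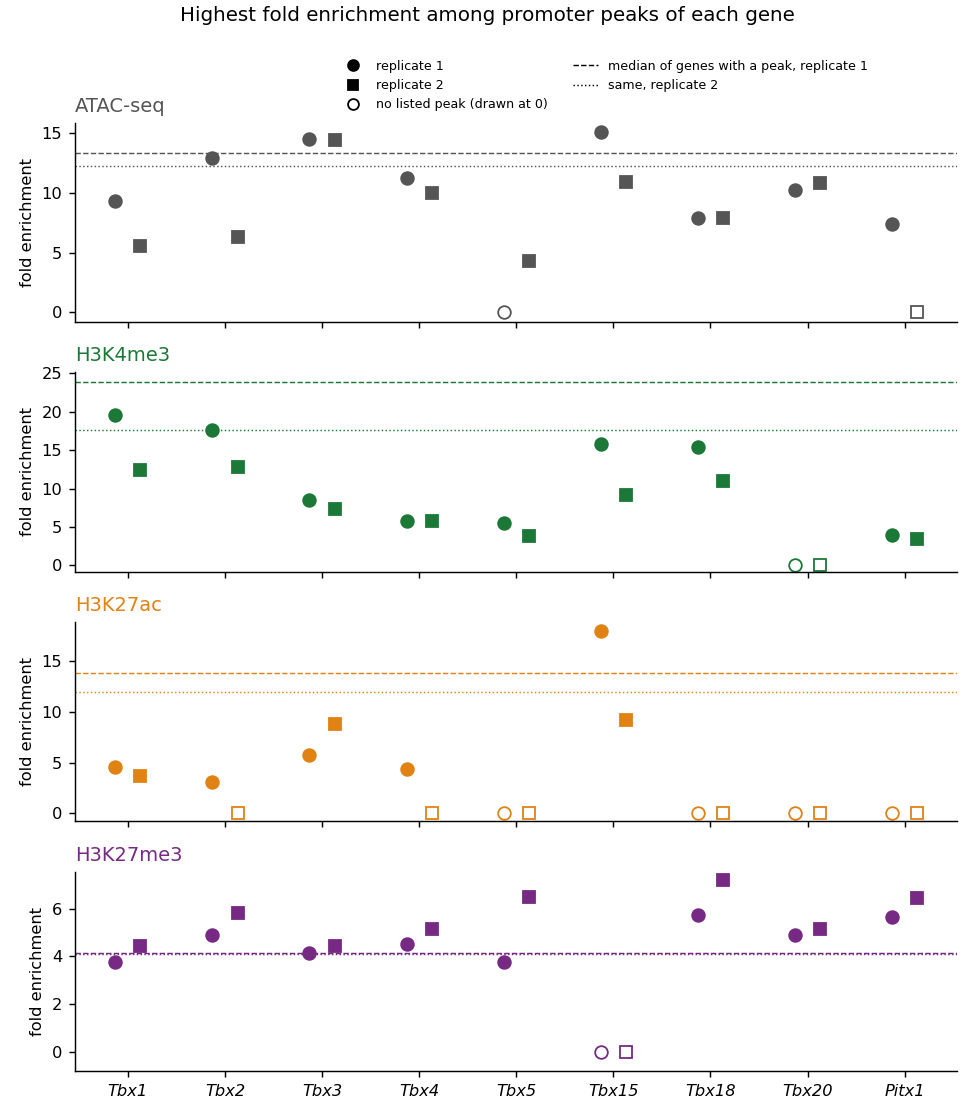
Highest fold enrichment at the summit (vertical axis, linear) among the promoter peaks of each of the 9 genes, in 1 panel per feature, with circles for replicate 1 and squares for replicate 2. Open symbols at 0 stand for no listed peak, and the dashed and dotted lines give the median of all protein-coding genes with a promoter peak in replicates 1 and 2. Tbx15 had H3K27ac above the median line in replicate 1 (18) and below it in replicate 2 (9.25) and no H3K27me3, and in the H3K4me3 panel all 9 genes lie below the lines.

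The height of the peaks differed from that at typical marked promoters. Among the genes with an H3K4me3 promoter peak, the median of the highest fold enrichment was 23.9 in replicate 1 and 17.6 in replicate 2, and all 8 marked members lay below it in both replicates. For H3K27me3 the medians were 4.13 and 4.11, and 5 members (Tbx2, Tbx4, Tbx18, Tbx20 and Pitx1) lay above them in both replicates. Tbx1 and Tbx5 lay above the median in replicate 2 alone, and Tbx3 was level with it in replicate 1 (4.13) and above it in replicate 2 (4.45). The plot of promoter enrichments shows both patterns.

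Pitx1 (ENSMUSG00000021506.7), the homeobox gene that gives the hindlimb its identity, lies on the minus strand of chr13:55825051-55836192. H3K27me3 peaks flanked both of its starts, with 13 promoter peaks in each replicate, a highest fold of 5.63 in replicate 1 and 6.44 in replicate 2, and 30.2% and 67.1% of the promoter within peaks. Across the 1677 genes with promoter H3K27me3 in replicate 2, 91.8% had a lower highest fold, and 85.2% of the 1241 genes in replicate 1. H3K4me3 was weak, with a single peak at the internal start 4767 bp into the gene, of fold 3.95 (chr13:55830819-55831263) and 3.41 (chr13:55830899-55831330). Of these H3K4me3 bases, 96.9% and 100% lay inside H3K27me3 peaks. Replicate 1 listed 5 ATAC-seq peaks in the promoter, up to fold 7.4, and replicate 2 listed 0. H3K27ac was absent from the promoter and from the whole window in both replicates.

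Outside its promoter, Pitx1 had 2 ATAC-seq peaks found in both replicates. One lay near the end of the gene at the start of the antisense transcript Gm47071 (fold 5.44 and 3.41), and the other upstream, at −14649 and −14632 bp from the Pitx1 start, inside Gm47071 (fold 6.02 and 8.03). The upstream region is printed because it was the distal open element near Pitx1 that both replicates share. The run gives the bases common to both peaks, chr13:55850731-55850967, on the plus strand of GRCm38.p6 (mm10), read from the RefSeq genome, with CpG dinucleotides in capitals.

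Pitx1 upstream ATAC-seq peak: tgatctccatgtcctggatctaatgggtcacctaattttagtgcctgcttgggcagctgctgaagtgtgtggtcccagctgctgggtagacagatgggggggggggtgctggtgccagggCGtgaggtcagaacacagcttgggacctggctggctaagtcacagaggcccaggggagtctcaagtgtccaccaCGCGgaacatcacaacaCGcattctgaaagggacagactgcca

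It holds 4 CpG dinucleotides in 237 bases, 0.21 of the number that its C and G content gives, and matches to the E-box CAGCTG, a site that myogenic factors are known to bind.

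Tbx4 (ENSMUSG00000000094.12), the T-box gene of hindlimb and lung, lies at chr11:85886422-85916097 on the plus strand and has 3 starts. The first and second starts had H3K27me3 within 1 kb and none of the other features. At the first start the highest fold was 4.5 in replicate 1 and 5.13 in replicate 2, and at the second 4.13 and 3.76. The third start, 10343 bp into the gene, had the opposite state. It was open by ATAC-seq (fold 11.2 and 9.97), carried H3K4me3 (5.74 and 5.81) and, in replicate 1 alone, H3K27ac (4.32), and had no H3K27me3 within 1 kb. Accordingly, 0% of the H3K4me3 bases of the Tbx4 promoter lay within H3K27me3 peaks in either replicate, so that both marks counted at the gene without meeting at a start.

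The RefSeq annotation of the same build lists experimentally defined enhancers near Tbx4, among them HLEA and HLEB, which drive hindlimb expression in the embryo, and a lung enhancer. HLEA, at chr11:85876050-85877122 upstream of the gene, had 0 peaks in all 8 lists, as had HLEB, at chr11:85960938-85964406 downstream. The lung enhancer, at chr11:85891339-85896883, spans the 250 bases before the third start and overlapped 2 ATAC-seq and 2 H3K4me3 peaks in each replicate, 2 H3K27ac peaks in replicate 1 and 0 in replicate 2, and 0 and 4 H3K27me3 peaks. Of 1015 RefSeq enhancers in the genome, 31.4% overlapped an ATAC-seq peak in both replicates, 10.2% an H3K4me3 peak, 11.6% an H3K27ac peak and 3.55% an H3K27me3 peak. The sequence before the third start of Tbx4 is set beside that of Tbx20, because the former start was free of H3K27me3 and carried H3K4me3 whereas the latter had H3K27me3 and no H3K4me3. Both are the 250 bases before the RefSeq start in GRCm38.p6, written 5′ to 3′ on the strand of the gene, with CpG dinucleotides in capitals. The Tbx4 run is chr11:85896515-85896764 on the plus strand and the Tbx20 run chr9:24774304-24774553 on the minus strand.

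Tbx4 internal start: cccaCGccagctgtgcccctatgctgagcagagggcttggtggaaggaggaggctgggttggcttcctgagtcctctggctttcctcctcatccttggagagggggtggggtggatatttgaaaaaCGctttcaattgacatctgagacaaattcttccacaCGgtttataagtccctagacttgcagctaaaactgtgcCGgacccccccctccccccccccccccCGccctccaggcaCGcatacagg
Tbx20 first start: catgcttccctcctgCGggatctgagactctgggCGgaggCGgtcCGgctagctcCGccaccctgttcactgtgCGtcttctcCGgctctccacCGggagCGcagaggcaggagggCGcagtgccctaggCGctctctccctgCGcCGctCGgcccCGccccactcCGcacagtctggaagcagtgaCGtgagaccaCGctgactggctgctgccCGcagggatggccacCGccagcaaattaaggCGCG

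The Tbx4 run holds 6 CpG dinucleotides (0.28 of the number its C and G content gives) and an E-box match, and the Tbx20 run 22 (0.75) and no match to the motifs searched.

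Tbx20 (ENSMUSG00000031965.15), a cardiac regulator on the minus strand of chr9:24718138-24774303, was the member without H3K4me3. Its promoter was open at 1 place in each replicate, chr9:24774321-24774514 with fold 10.2 and chr9:24774304-24774503 with fold 10.8, directly before the first start and within the printed run. In the whole window of 50 kb either side this was the single ATAC-seq peak found in both replicates, and there were 0 H3K4me3 and 0 H3K27ac peaks in either. H3K27me3 reached 4.88 and 5.13, over 8 and 13 promoter peaks that covered 13.7% and 47.7% of the promoter. The open region lay outside H3K27me3 peaks in replicate 1 (0% of its bases) and inside them in replicate 2 (100%), so the replicates disagree on whether both features share these bases. A promoter with ATAC-seq and H3K27me3 and without both other marks was found at 121 protein-coding genes (0.552%).

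Tbx5 (ENSMUSG00000018263.11), the forelimb and heart gene at chr5:119832668-119885219, was among the least open members. Within its window ATAC-seq listed 2 peaks in replicate 1 and 1 in replicate 2, none in common, against a median of 12 and 8 for protein-coding genes. H3K27me3 reached 3.75 in replicate 1 and 6.5 in replicate 2 at the promoter, with 6 and 10 peaks. None of the 6 had a q of at most 0.05 and 7 of the 10 did, so the mark at Tbx5 rests on replicate 2. H3K4me3 had 1 peak in each replicate, of fold 5.56 (chr5:119831143-119831780) and 3.81 (chr5:119831160-119831637), upstream of the gene and near the start of the divergent noncoding gene Gm43050, which lies 748 bp from that of Tbx5. With starts counted at 1 kb either side, this peak no longer counted for Tbx5 in both replicates. Of the H3K4me3 bases of the Tbx5 promoter, 0% in replicate 1 and 52.7% in replicate 2 lay within H3K27me3 peaks. H3K27ac had 0 peaks in the window.

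**Figure D2:**
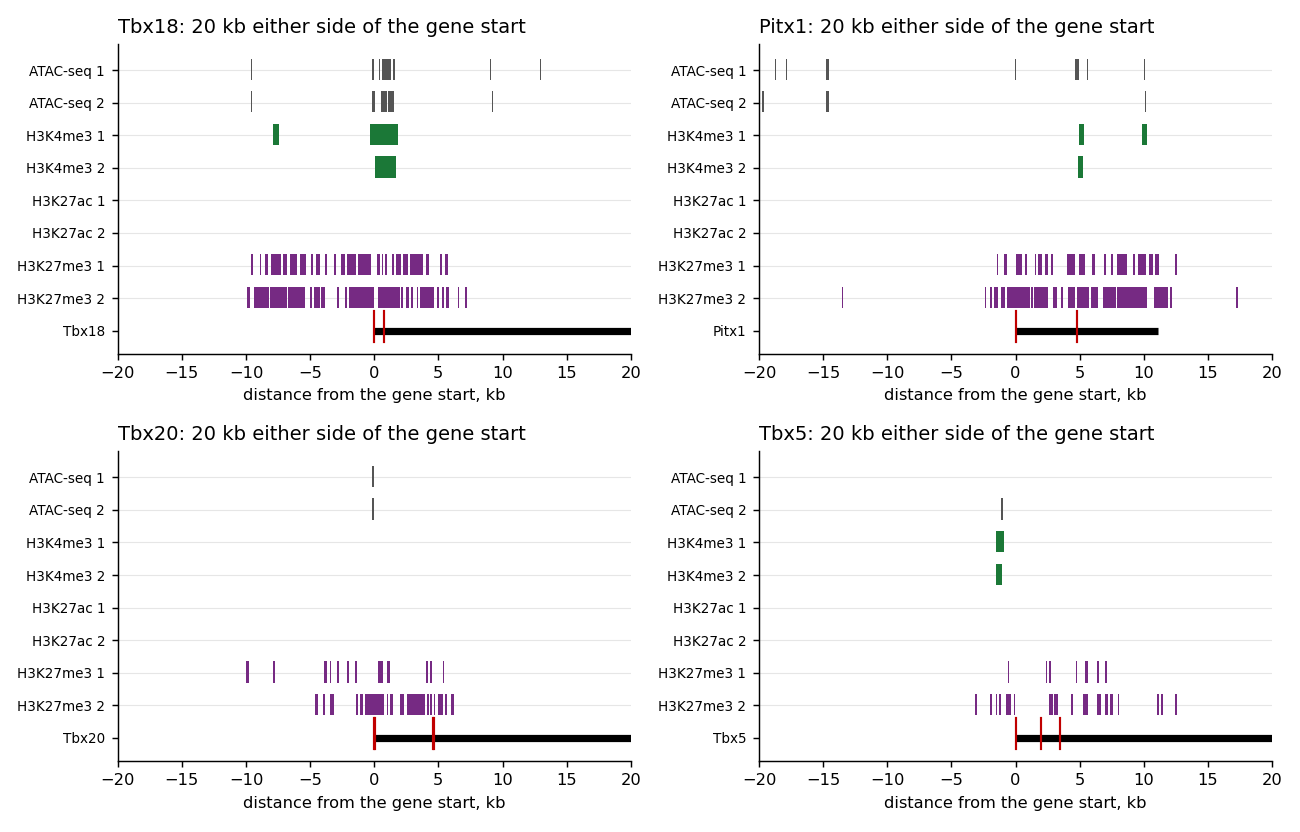
Peaks within 20 kb either side of the gene start of Tbx18, Pitx1, Tbx20 and Tbx5, with distance in kb on the horizontal axis, 1 row per feature and replicate, and each bar drawn at the width of a peak with a small minimum so that narrow peaks can be seen. The black line is the gene and red ticks are annotated starts. H3K27me3 peaks form runs over the starts of all 4 genes, the H3K27ac rows are empty, and H3K4me3 is wider at Tbx18 than at Pitx1 and Tbx5 and absent at Tbx20.

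Tbx18 (ENSMUSG00000032419.8), a gene of limb and trunk mesenchyme on the minus strand of chr9:87702800-87731260, carried H3K4me3 and the highest promoter H3K27me3 of the 9 genes. H3K4me3 reached 15.4 over 2223 bp in replicate 1 and 11 over 1633 bp in replicate 2, against median widths of 1158 and 1027 bp in the lists. The widest H3K4me3 promoter peaks of Tbx1, Tbx3 and Tbx15 were wider in both replicates. H3K27me3 reached 5.75 and 7.19, above the promoter values of the other members in both replicates, and 64.3% and 71.9% of the promoter lay in H3K27me3 peaks. Of the genes with promoter H3K27me3, 89.7% and 96.7% had a lower highest fold. H3K27me3 peaks contained 42.6% and 84.1% of the H3K4me3 bases of the promoter. ATAC-seq reached 7.93 and 7.88, and H3K27ac had 0 peaks in the window of either replicate. The H3K27me3 peaks spanned 15.3 and 17.1 kb, from within the gene to the start of the upstream transcript Gm37374.

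Tbx15 (ENSMUSG00000027868.11), the other mesenchymal member, at chr3:99240381-99354259, had H3K4me3 close to that of Tbx18 but the opposite state of H3K27ac and H3K27me3. No H3K27me3 peak lay at its promoter, and in its window of 50 kb either side there were 0 in replicate 1 and 1 in replicate 2, outside the gene, of fold 3.42 and a −log10 q of 0.957. Its first start was open (12.2 and 9.75) and had H3K4me3 (10.3 and 8.03) but no H3K27ac. The second start, 13379 bp into the gene, had ATAC-seq peaks (11.4 and 10.9), H3K4me3 (15.8 over 2781 bp and 9.13 over 2682 bp) and the strongest H3K27ac of the 9 genes, of fold 18 at chr3:99253568-99255567 in replicate 1 and 9.25 at chr3:99253724-99255075 in replicate 2. The third start, 56129 bp into the gene, had ATAC-seq peaks alone (15.1 and 10.6). Further open sites without histone peaks lay in introns, such as the one at chr3:99340160-99340302, with fold 10.2 and 9.87. The promoter state of Tbx15, with ATAC-seq, H3K4me3 and H3K27ac and no H3K27me3 in both replicates, was shared by 9955 protein-coding genes (45.4%). Its H3K27ac stood above that of 65.4% of marked genes in replicate 1 and of 35.1% in replicate 2. Tbx15 is also known from fibroblasts and fat cells, and of the fibro-adipogenic markers Dpt (8.81 and 6.21), Col15a1 (10.9 and 9.25) and Cd55 (4.98 and 5.15) had H3K27ac as well, while Pdgfra, their defining receptor, had H3K27me3 (6.75 and 6.5) and no H3K27ac. The part of such cells in the Tbx15 peaks was not tested.

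**Figure D3:**
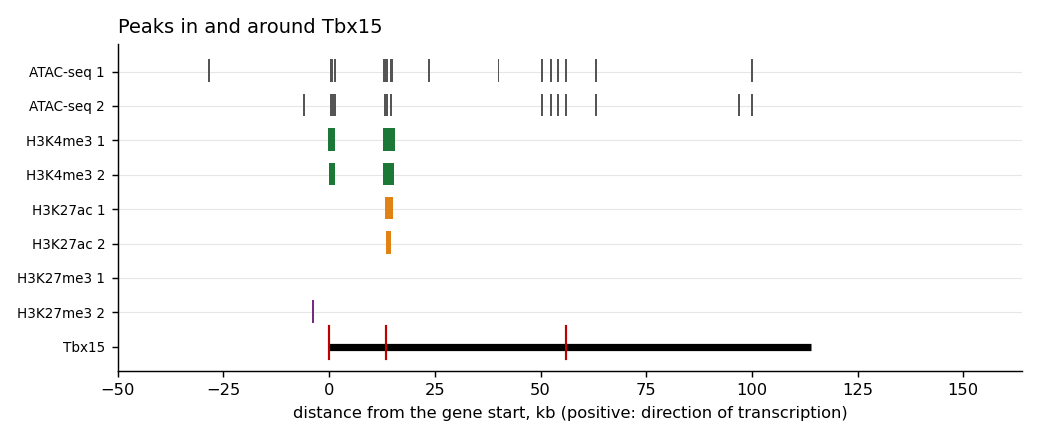
Peaks in Tbx15 and 50 kb either side, with distance from the gene start in kb on the horizontal axis and 1 row per feature and replicate. The black line is the gene and red ticks are its 3 starts. H3K27ac lies at the second start in both replicates, the first start has H3K4me3 without it, the third has ATAC-seq alone, and the H3K27me3 rows hold 0 and 1 peaks.

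Tbx2 (ENSMUSG00000000093.6), a repressor of limb margins and heart cushions at chr11:85832551-85841948, was open at its single start (12.9 in replicate 1 and 6.27 in replicate 2). Its H3K4me3 there (17.6 and 12.8) stood above that of 32.8% and 31.4% of genes with promoter H3K4me3. H3K27me3 covered 26.8% and 58.3% of the promoter, with highest folds of 4.88 and 5.82, and contained 31.5% and 63.7% of the H3K4me3 bases. A weak H3K27ac promoter peak was listed in replicate 1 (fold 3.07, −log10 q 1.39) and not in replicate 2.

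H3K27ac found in both replicates lay instead beyond the end of Tbx2, between Tbx2 and Tbx4, at chr11:85843793-85844840 (fold 5.37) and chr11:85844257-85844656 (fold 4.41). Their summits were 11739 and 12030 bp from the Tbx2 start. It was the distal H3K27ac region with no annotated start within 3 kb that both replicates shared near any of the 9 genes. The same place had an H3K4me3 peak of fold 16 over 1733 bp in replicate 1 and 9.97 over 1894 bp in replicate 2, close to the 17.6 and 12.8 of the Tbx2 promoter itself, and no H3K27me3. The nearest annotated start of any gene lay 5859 and 5805 bp from the H3K4me3 summits. Of all H3K4me3 peaks more than 3 kb from a start, 4363 in replicate 1 and 2511 in replicate 2, the median fold was 4.16 and 4.21, and 3% and 7.73% were as high or higher, 1.93% and 1.23% as wide or wider. H3K27ac overlapped 40.2% and 35.4% of such distal peaks. The sequences of the 2 ATAC-seq peaks that were strongest there in replicate 1 are printed because they lie under this promoter-like mark without an annotated gene. They are chr11:85843379-85843650 (fold 8.37 and 8.32) and chr11:85844189-85844438 (fold 7.99 and 4.59), the bases shared by both replicates on the plus strand of GRCm38.p6, with CpG dinucleotides in capitals.

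Tbx2-Tbx4 interval, first peak: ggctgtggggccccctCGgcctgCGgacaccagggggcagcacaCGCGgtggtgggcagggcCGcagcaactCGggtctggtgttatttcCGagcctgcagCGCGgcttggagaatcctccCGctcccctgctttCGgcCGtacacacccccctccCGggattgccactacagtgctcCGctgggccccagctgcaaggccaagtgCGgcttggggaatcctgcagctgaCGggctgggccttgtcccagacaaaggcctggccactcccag
Tbx2-Tbx4 interval, second peak: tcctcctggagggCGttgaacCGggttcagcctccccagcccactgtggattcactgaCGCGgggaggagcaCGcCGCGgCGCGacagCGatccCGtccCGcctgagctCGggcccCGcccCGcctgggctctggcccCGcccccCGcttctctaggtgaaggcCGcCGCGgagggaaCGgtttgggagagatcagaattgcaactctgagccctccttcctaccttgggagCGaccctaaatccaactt

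They hold 16 CpG dinucleotides in 272 bases and 22 in 250 bases, 0.5 and 0.79 of the number that their C and G content gives, and the first holds E-box matches. VISTA mm1583, a RefSeq enhancer between both genes at chr11:85857229-85860254, had 0 peaks in all 8 lists. A RefSeq enhancer before the Tbx2 start, at chr11:85830135-85830520, overlapped 1 H3K27me3 peak in each replicate. It also overlapped 1 H3K4me3 peak in replicate 1 and 0 in replicate 2.

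**Figure D4:**
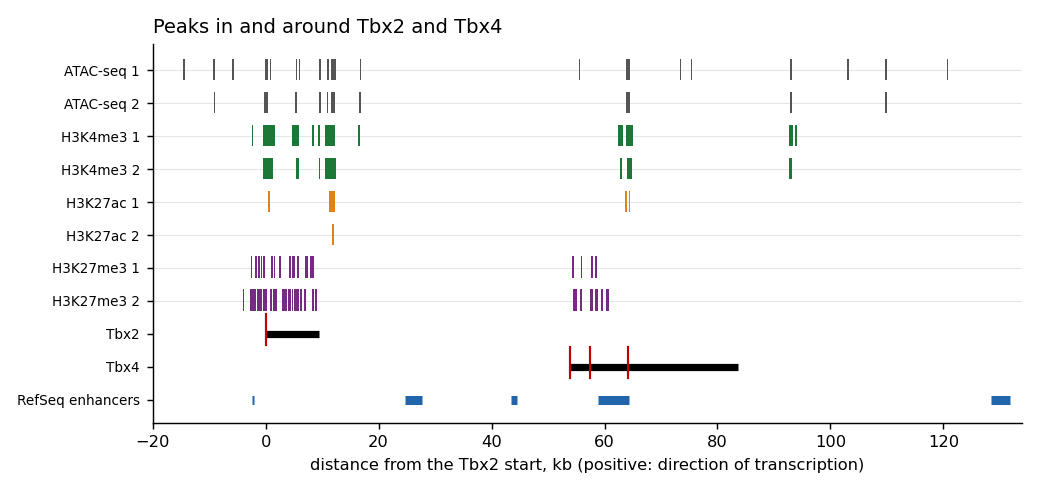
Peaks in and around Tbx2 and Tbx4, which lie on the same strand, with distance from the Tbx2 start in kb on the horizontal axis and 1 row per feature and replicate. Black lines are the genes, red ticks their starts and blue bars the enhancers in the RefSeq annotation. H3K27me3 forms 1 run over Tbx2 and 1 over the first starts of Tbx4, the H3K27ac shared by both replicates lies after the end of Tbx2, and no peak touches the RefSeq enhancers HLEA, HLEB and mm1583.

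Tbx3 (ENSMUSG00000018604.18), the close relative of Tbx2 at chr5:119670669-119684724, had all 4 features in both replicates. Its first start was wide open (14.5 over 832 bp and 14.4 over 869 bp), with H3K4me3 of 8.46 and 7.36 and H3K27ac of 5.75 at chr5:119670067-119670834 and 8.83 at chr5:119670032-119670720, shared with the start of the antisense gene Tbx3os1. H3K27me3 reached 4.13 and 4.45 over 6 and 9 promoter peaks, of which 1 and 7 had a q of at most 0.05. None of the H3K27ac bases of the promoter lay within H3K27me3 peaks in either replicate, and 8.38% and 8.58% of the H3K4me3 bases did, so that peaks of active and repressive marks lay largely apart. Whether these marks occur in the same cells was not tested. The H3K27me3 peaks of the window numbered 21 and 38 and spanned 32.7 and 35.5 kb. The RefSeq enhancer eA upstream of Tbx3, at chr5:119650220-119652750, had 0 peaks in all 8 lists.

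Tbx1 (ENSMUSG00000009097.10), a gene of branchial muscle on the minus strand of chr16:18580979-18590671, also had all 4 features. All 4 were listed within 1 kb of the third start, H3K27me3 by peaks with a q above 0.05. The gene start itself had H3K27me3 within 1 kb (3.75 and 3.42) and no other peak. H3K4me3 was broad at the third start, 3702 bp into the gene, with fold 19.6 over 3609 bp in replicate 1 and 12.4 over 2159 bp in replicate 2, and ATAC-seq there reached 6.48 and 5.45. H3K27ac was weak at the same start, of fold 4.6 (chr16:18586324-18586561) and 3.68 (chr16:18586337-18586869), above that of 4.35% and 1.05% of genes with promoter H3K27ac. Of these H3K27ac bases, 82.4% and 48.2% lay within H3K27me3 peaks, chr16:18586337-18586532 in replicate 1 and chr16:18586613-18586964 in replicate 2. These peaks had a −log10 q of 0.934 and 0.957 and did not overlap each other. The H3K27me3 peaks of the promoter were weak, and a q of at most 0.05 was reached by 0 of 3 in replicate 1 and by 1 of 3 in replicate 2. That peak, chr16:18582024-18582557, lay near the fourth start. The state with all 4 features in both replicates, shared by Tbx1 and Tbx3, was found at 172 protein-coding genes (0.784%). The RefSeq enhancers upstream of Tbx1 overlapped 1 ATAC-seq peak in each replicate over the longest fragment, chr16:18601066-18604629, and no histone peak. Downstream of Tbx1, the RefSeq enhancer VISTA mm321 at chr16:18554168-18557637 overlapped 2 ATAC-seq peaks in replicate 1, 1 in replicate 2 and no histone peak.

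Over the gene and 50 kb either side, the members held more H3K27me3 peaks than protein-coding genes in general and similar numbers of ATAC-seq and H3K4me3 peaks. The median H3K27me3 number was 12 peaks in replicate 1 and 18 in replicate 2 for the members and 0 in both for all protein-coding genes, of which 83.4% and 77.6% had 0. Peaks covered from 0% at Tbx15 to 6.6% at Tbx18 of the window in replicate 1, and from 0.0608% at Tbx15 to 9.92% at Pitx1 in replicate 2, against means of 0.162% and 0.309%. As much H3K27me3 as at Tbx18 lay around 0.442% and 0.629% of protein-coding genes, and as much as at Pitx1 around 0.675% and 0.529%. ATAC-seq medians were 12 and 8 peaks for members and for all genes alike, and H3K4me3 medians were 2 and 2 in both sets. H3K27ac had a median of 1 peak in each replicate against 2, and Tbx5, Tbx18, Tbx20 and Pitx1 had 0 in both replicates, as had 28.3% and 31.2% of all genes in a given replicate. The windows of Tbx2 and Tbx4 overlap, so that these 2 genes share peaks. Counting shared peaks once, the 8 regions held 108 and 155 H3K27me3 peaks in replicates 1 and 2, and 11 and 6 H3K27ac peaks. The count of 131.5 H3K27me3 peaks per replicate became 79.5 with a q of at most 0.05. Of the H3K27me3 peaks in these regions, 75% in replicate 1 and 45.2% in replicate 2 were found in the other replicate, against 68.3% and 34.8% in the whole lists, and of the H3K27ac peaks 45.5% and 83.3% against 64.6% and 91%.

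**Figure D5:**
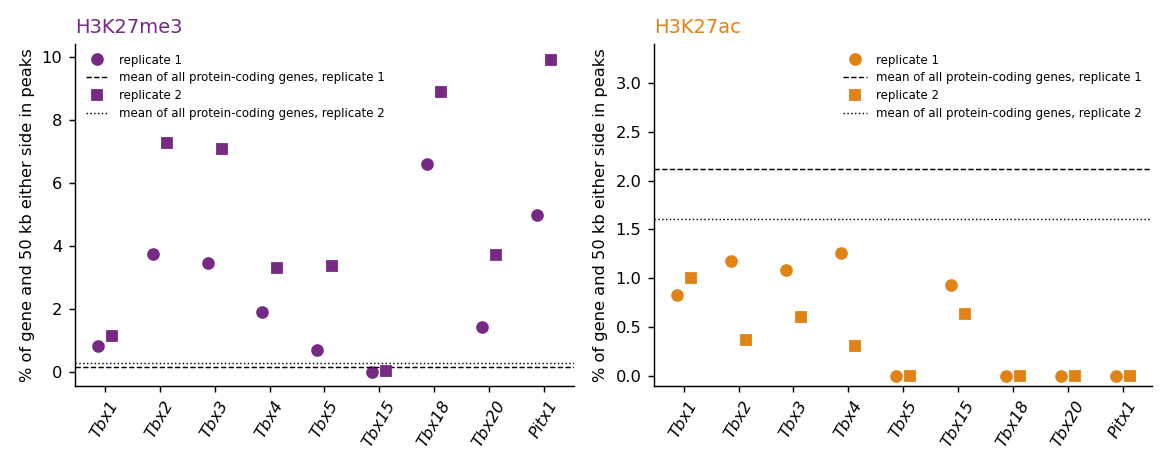
Percentage of each gene and 50 kb either side within H3K27me3 peaks (left) and H3K27ac peaks (right), with circles for replicate 1 and squares for replicate 2. The dashed and dotted lines give the means of all protein-coding genes, 0.162% and 0.309% for H3K27me3 and 2.12% and 1.61% for H3K27ac. All genes but Tbx15 lie above the H3K27me3 lines. All 9 lie below the H3K27ac lines, but the medians of all genes are lower, 1.25% and 0.938%, and Tbx4 in replicate 1 (1.26%) and Tbx1 in replicate 2 (0.999%) lie above these.

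Of 10 other protein-coding genes that reach into the windows, 5 had promoter H3K27ac and no H3K27me3, but of their H3K27ac peaks that of Sept5 alone lay within a window. Gnb1l (13.8 and 8.46) and Sept5 (7.66 and 4.78) near Tbx1, Bcas3 near Tbx2 (10.9 and 12.1), Wars2 near Tbx15 (24.1 and 14.8) and Pcbd2 near Pitx1 (14.9 and 9.19) had promoter H3K27ac in both replicates and no H3K27me3. Gp1bb and Gm49601 near Tbx1 had H3K27me3 (3.75 and 3.42 at both), Gm11444 between Tbx2 and Tbx4 was open with no histone mark present in both replicates, and Dpy19l2 near Tbx20 and Catsper3 near Pitx1 had 0 promoter peaks in all lists. Noncoding genes whose start falls in a member promoter (2610027K06Rik at Tbx2, Tbx3os1, Gm43050 at Tbx5, D030062O11Rik at Tbx18, Gm29824 at Tbx20, Gm28760 at Pitx1 and 4930588K23Rik at Tbx1) share its peaks, and which of the starts a peak belongs to cannot be told apart.

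Other genes of the same programmes were counted from fixed lists, and some genes, such as Isl1, Fgf8 and Hand2, stand in more than 1 list. Of 11 further T-box and Pitx genes, 4 had H3K27me3 in both replicates (3 with a q of at most 0.05), the early mesoderm genes T and Eomes, the cortical gene Tbr1 and the T cell gene Tbx21. Mga (11.7 and 8.46) and Pitx3 (9.36 and 7.73) of this list had H3K27ac, and Tbx10 had no peak in any list. Pitx3, a relative of Pitx1, had H3K4me3 of 19.5 and 17.1 against 3.95 and 3.41 at Pitx1.

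Of 22 limb field and patterning genes, 12 had H3K27me3 and 8 had H3K27ac in both replicates. Those with H3K27ac were En1, Prrx1, Met, Hoxa11, Meis1, Gli3, Hoxc10 and Lbx1, among them Met and Lbx1, which guide migrating muscle precursors into the limb, and Hoxa11 and Hoxc10 had H3K27me3 as well. The others with H3K27me3 were Lmx1b, Hoxd11, Meis2, Sall4, Msx1, Wnt7a, Hand2, Msx2, Isl1 and Fgf8. Of 10 cardiac partners of T-box factors, 8 had H3K27me3 (Gata4, Gata5, Gata6, Hand1, Hand2, Irx4, Isl1 and Nkx2-5) and 0 had H3K27ac. Of 9 head and branchial muscle genes, 4 had H3K27me3 (Lhx2, Tcf21, Isl1 and Fgf8), and Eya1 and Msc were among those with H3K27ac. Of 10 trunk mesoderm and somite genes, 0 had H3K27ac and 5 had H3K27me3 (Pax3, Tcf15, Uncx, Foxc2 and Ripply2), which became 3 with a q of at most 0.05. No gene of the 4 lists other than the T-box and Pitx list was free of peaks altogether. These shares stand beside the background of 4.81% for H3K27me3 and 46.6% for H3K27ac, and the lists were not tested against each other.

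By the distance between the 8 highest promoter folds of a gene (4 features in 2 replicates, each as log2 of 1 plus the fold), each member had a nearest gene among the 54 list genes. Tbx18 was nearest to Fgf8 (distance 0.692, against a median of 5.58 over the list genes), Pitx1 to Hand2 (0.726, median 4.69) and Tbx15 to Meis1 (0.668, median 6.75). Tbx1 was nearest to Hoxa11 (1.46), Tbx20 to Uncx (1.52), Tbx3 to Hoxc10 (1.81), Tbx2 to Meis2 (2.13), Tbx4 to Wnt7a (2.53) and Tbx5 to Lmx1b (3.19). Of these nearest distances, that of Tbx5 was the longest.

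RefSeq promoters of 300 bases, 250 before and 50 after a start, were matched for 4 members, Tbx1 with 2 starts, Tbx4, Tbx18 and Tbx20. Tbx1 had 26 and 16 CpG dinucleotides at its RefSeq starts, Tbx18 had 15 and Tbx20 had 26. The third start of Tbx4 had 8, and the median over 32841 promoters was 7. Exact matches on both strands were searched for the T-box site AGGTGTGA, the bicoid-type site TAATCC of Pitx factors, the E-box CAGCTG and the AP-1 site TGAGTCA, whose other strand reads TGACTCA. Tbx4 had 1 E-box, which 16.3% of all promoters had, and the promoters of the other 3 genes had no match to any motif. The other motifs were present in 1.28% (T-box), 7.06% (bicoid-type) and 5.2% (AP-1) of all. Of the 57 ATAC-seq peaks around the members that were found in both replicates, 29.8% held an E-box within 300 bases centred on the summit, against 27.5% of all 140701 ATAC-seq peaks of replicate 1 so measured. An AP-1 site was present in 7.02% against 15.5%, a bicoid-type site in 3.51% against 8.39%, and the T-box site in 0 of 57 against 1.07%. These peaks had a median of 13 CpG dinucleotides per 300 bases against 5 of all. The larger set was not limited to peaks found in both replicates, nor matched for CpG content or distance to a start. The motif differences were not tested.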

How the data were processed

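ATAC-seq and ChIP-seq peak lists of GFP+ MuSCs, 2 libraries per feature, were used, and the editing, input and other samples of the series were not analysed here. Per the study's methods and the submitters' processing notes, the authors trimmed reads with Trim Galore 0.6.10, aligned them to mm10 with BWA 0.7.17-r1188, removed duplicates and reads of low mapping quality with SAMtools 1.5 and Sambamba, removed blacklisted regions with BEDTools, corrected ATAC-seq for the Tn5 offset with deepTools 3.5.5 and called peaks with MACS2 2.2.6. The deposited values are the fold enrichment at the summit (a ratio), the −log10 p-value and −log10 q-value, and a score derived from the q-value by the peak caller. The deposited H3K27me3 lists reach down to a −log10 p of 3.01 whatever the q, so that weak peaks enter them more readily than the other lists. No read counts are included, so depth could not be weighed.

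Peaks were intersected with GENCODE M21 genes on assembled chromosomes in Python 3.11.15 with numpy 2.4.6 and pandas 2.3.3, and plotted with matplotlib 3.10.9. A shared base counted as overlap, and the code was checked on simulated intervals. Replicates come from the library titles, a call needed a peak in both, and no test was run. Genes named in the text are the 9 members, the genes of the fixed lists and markers, and the annotated neighbours, of which some are not reported here. The members and lists were chosen with earlier results of these data known. The comparison with RefSeq enhancers, the account of the interval between Tbx2 and Tbx4 the joint count of H3K4me3, H3K27me3 and no H3K27ac and the choice of printed sequences were added after seeing the data. Sequences and enhancers are from RefSeq on GRCm38.p6. Alternatives were the promoter width, the starts counted, the q limit, the overlap, the window and each replicate alone.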

Additional observations from a re-analysis of the deposited data

How the results depend on the processing

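Among the alternative values, 51 stayed within 1.5 times the main value or, for shares of peaks found in the other replicate, within 1 SD of it, and 9 moved further. The 3 members with H3K27ac became 1 (Tbx3) when the 5-prime end of the gene was the only start, and 5 when a peak in either replicate was enough, and leaving out each replicate in turn gave 3 to 5, on different sides of the share of all genes. The 5 members with H3K4me3 and H3K27me3 and without H3K27ac in both, a count added after seeing the data, ranged from 3 to 5 when each replicate was left out. The mean of 8.5 H3K27ac peaks became 13 within 100 kb and 3.5 at a −log10 q of at least 5. At that limit the 8 members with H3K27me3 became 0 and the mean of 131.5 H3K27me3 peaks became 5.5, and the latter became 79.5 at a q of at most 0.05. The cause was not tested beyond what each setting leaves out. No paired analysis was possible because the values come from no test and replicate numbers join lists of different features. The unknown depth limits every statement on an absent peak.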
